A study of Drosophila melanogaster with 6 samples.

Results

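The ecdysone receptor genes EcR and usp and 8 genes of the early nuclear response to ecdysone (br, Eip74EF, Eip75B, Eip93F, Hr3, Hr4, Hr39 and ftz-f1) were examined in leg tendon precursors. These 10 genes, chosen by name, are 10 of 17411 genes with a deposited expression level. 9 were matched by the symbol given in the table of mean normalized counts, and br, whose symbol is blank there, by its name in the expression table. Leg discs of sr-gal4>UASGFP Drosophila were taken at 0 h after pupa formation (APF) and dissociated, and mRNA was sequenced from 3 GFP+ libraries and 3 input (IP) libraries. Both groups carry the same genotype, which the methods give as UAS-Lifeactin.GFP with sr-gal4 over the TM6b balancer. sr-gal4 is expressed where stripe (sr) is, so GFP marks the tendon precursors. Input cells were sorted first and without regard to fluorescence, so they hold GFP+ cells as well as the other disc epithelium and the myoblasts attached to it. Each library came from pooled discs of many animals. Levels are deposited as 1 FPKM (fragments per kilobase of transcript, scaled to library size) per group with a lower and an upper confidence bound, so values of single libraries are not analysed here.

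Ecdysone is the steroid that triggers larval molts and metamorphosis. It binds a heterodimer of the nuclear receptors EcR and Ultraspiracle (usp), which switches on a small set of early genes, most of which encode transcription factors. These in turn act on early-late and late genes, so that each pulse of hormone runs as a cascade. Puparium formation follows the large pulse at the end of larval life, and in leg discs that pulse drives elongation and eversion, the period in which the long tendons invaginate.

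At 0 h APF the receptor subunits, the early genes br, Eip74EF and Eip75B and the early-late genes were all detected in GFP+ tendon precursors. Of the 7 genes with usable estimates and an FPKM of at least 1, 5 were below the input, against 12.9% of all genes compared. Long transcripts were lower more often. Relative to genes of like median length 3 were lower and 1 higher, against 5.41% and 7.15% of all genes. With the longest transcript as the length, 1 was lower and 1 higher, against 4.79% and 7.32%. 8 of the 10 genes had an FPKM of at least 10 in GFP+ cells, while Eip93F and ftz-f1 stayed below 1 in both groups. Hr3 and br had the lowest ratios among the genes that could be compared, and usp and Eip74EF had levels in GFP+ cells near those of the input.

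EcR encodes the hormone-binding subunit of the receptor. Its gene (FBgn0000546) lies on the minus strand of chromosome 2R of dm6, from 6087873 to 6169087, and is annotated with 6 transcripts from 4 start sites in Ensembl, the source of all positions here. EcR had 12.8 (bounds 9.84 to 15.8) FPKM in the GFP+ sort against 31.9 (25.7 to 38.1) in the input. The bounds of the groups did not overlap, and the ratio of GFP+ to input was 0.401, with an interval from both groups' bounds of 0.297 to 0.543. The levels are per gene, so the EcR isoforms, which differ in their first exons, cannot be told apart. In bulk samples, fewer cells with a transcript and less of it per cell cannot be told apart either.

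usp encodes the RXR homologue that EcR needs as its partner. It is a compact gene (FBgn0003964, chromosome X, 2038798 to 2042311, minus strand) with 2 transcripts. usp had 36.9 (20.0 to 53.8) FPKM in the GFP+ sort against 40.4 (18.0 to 62.8) in the input. These bounds overlapped over most of their range, and the ratio of 0.915 had an interval of 0.446 to 1.88, the widest among the compared genes of the set. Of its exonic bases, 8.72% are shared with Actn on the same strand, which was also near the input, with 55.8 FPKM in the GFP+ sort against 64.8 in the input. Within GFP+ cells usp exceeded EcR 2.88-fold and their bounds were apart. In input cells usp exceeded EcR 1.27-fold and their bounds overlapped. The interval of the usp ratio overlapped that of EcR, so the partners were not shown to differ in their change.

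**Figure D1:**
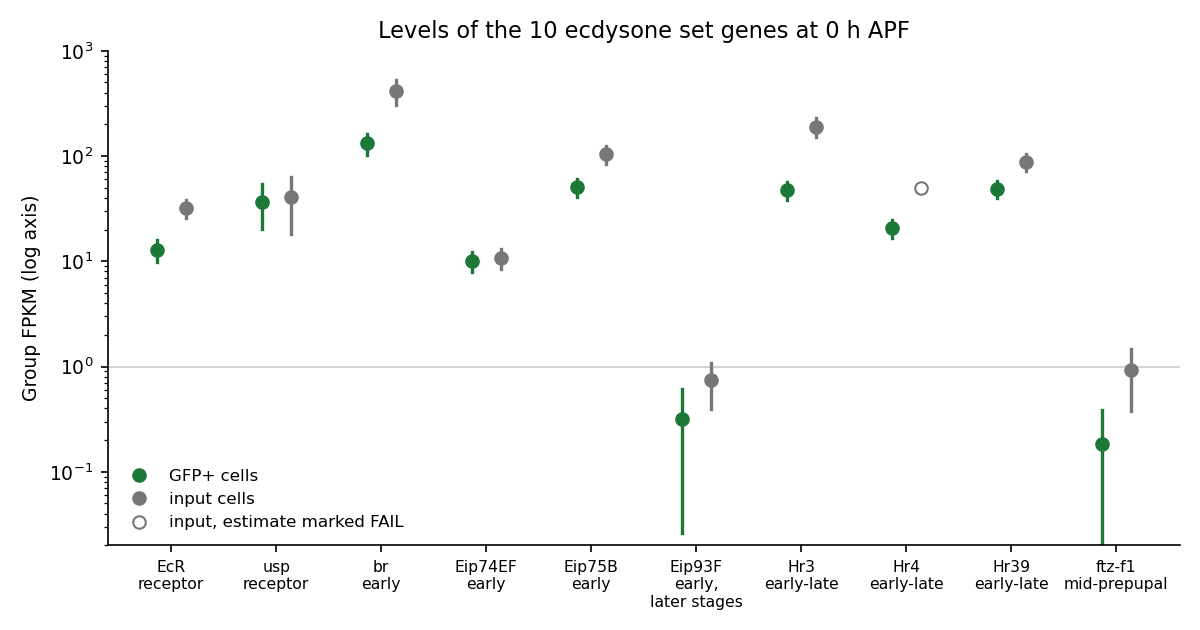
Group FPKM (log axis) of the 10 genes in GFP+ cells (green) and input cells (grey) at 0 h APF; points are the authors' group values, bars their confidence bounds, and bars that reach 0 are cut at the lower edge. br is the highest gene in both groups, Eip93F and ftz-f1 lie below an FPKM of 1 (horizontal line), and the input estimate of Hr4 is drawn open and without bounds because its status is FAIL.

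br (broad) encodes BTB zinc finger proteins that mark the pupal programme and are required for leg disc elongation. It had the highest level of the set in both groups, with 132 (102 to 162) FPKM in the GFP+ sort against 419 (306 to 533) in the input. The groups did not overlap, and the ratio was 0.314 (interval 0.221 to 0.448). br lies on chromosome X from 1575132 to 1664869 on the plus strand, with 16 annotated transcripts from 9 start sites, more than any other gene of the set. The files carry it under an older identifier, FBgn0000210, so its position was taken by symbol. Even at its lower level in GFP+ cells, br was 2.62-fold above Eip75B, the next gene there.

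Eip74EF, which encodes ETS-domain transcription factors of the first response, did not follow br. Its level was 10.002 (7.84 to 12.2) FPKM in the GFP+ sort against 10.8 (8.54 to 13.1) in the input, so the groups overlapped, and the ratio was 0.925 (interval 0.684 to 1.25). The gene (FBgn0000567) spans chromosome 3L from 17558672 to 17619325 on the minus strand and shares no exonic base with another annotated gene. Eip75B, on the same arm (FBgn0000568, 17950953 to 18064696, minus strand), encodes a heme-binding nuclear receptor that counteracts Hr3. It had 50.3 (40.7 to 59.97) FPKM in the GFP+ sort against 104 (84.1 to 125) in the input. The groups were apart, with a ratio of 0.482 (interval 0.367 to 0.634). The intervals of the 2 early genes did not overlap. Their median transcript lengths are 6012 nt for Eip74EF and 5769 nt for Eip75B, and their longest transcripts 6239 nt and 8236 nt. The part of length in this gap was not tested.

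Among the early-late genes, whose induction needs both the receptor and early proteins, Hr3 differed most. Hr3 is the orphan receptor that activates ftz-f1 once the hormone level has dropped. Its level was 47.4 (38.3 to 56.6) FPKM in the GFP+ sort against 190 (152 to 229) in the input, a ratio of 0.249 (interval 0.188 to 0.330). Hr39, a receptor of the same subfamily as ftz-f1, had 48.9 (39.5 to 58.3) FPKM in the GFP+ sort against 87.8 (71.3 to 104) in the input. Its groups were also apart, with a ratio of 0.557 (interval 0.426 to 0.728). In GFP+ cells Eip75B, Hr39 and Hr3 had overlapping bounds. In input cells the FPKM of Hr3 was 1.82-fold above Eip75B and 2.17-fold above Hr39, with bounds apart in both cases. On the scale of mean normalized counts per length the order turned, with Hr3 at 28.4, Hr39 at 67.2 and Eip75B at 84.7, so the rank of Hr3 depends on the scale. The interval of the Hr3 ratio lay below those of Eip75B and of Hr39 without overlap.

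Hr3 (FBgn0000448, chromosome 2R, 10203995 to 10237348, minus strand) and Hr39 (FBgn0261239, chromosome 2L, 21237250 to 21259675, plus strand) differ in what they share with other genes. Of the exonic bases of Hr3, 61.8% are shared with CG12912 on the same strand, which has a mean normalized count of 0, and 58.0% with CG46321, which was not matched in the expression table. No exon of a protein-coding neighbour overlaps Hr39. Hr4, a nuclear receptor that represses early genes, reached 20.7 FPKM (16.5 to 24.9) in the GFP+ sort. Its input value of 50.1 carries the status FAIL and bounds of 0 to 9.81 that do not contain it. No ratio or direction is therefore given for Hr4, which lies on chromosome X (FBgn0264562, 1941940 to 2007956, plus strand).

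The genes of the later steps were barely detected in either group. ftz-f1, the competence factor of the mid-prepupal stage, had 0.185 (0 to 0.383) FPKM in the GFP+ sort against 0.921 (0.379 to 1.46) in the input, and its bounds overlapped narrowly. Eip93F, which encodes the E93 protein of later metamorphic stages, had 0.321 (0.0261 to 0.615) and 0.738 (0.397 to 1.08). Their mean normalized counts over all libraries were 66.7 and 161, against 2000 to 58519 for the other 8 genes. Both are transcribed from long loci, ftz-f1 (FBgn0001078) on chromosome 3L from 18750607 to 18801309 and Eip93F (FBgn0264490) on 3R from 21949114 to 22014539. With an FPKM below 1 in both groups they were left out of the counts that follow.

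Of the 7 genes in the comparison, 5 (EcR, br, Eip75B, Hr3 and Hr39) were lower in GFP+ cells by bounds that do not overlap, 0 were higher and 2 (usp and Eip74EF) overlapped. Over all 9199 genes with an FPKM of at least 1 in a group, 12.9% were lower and 8.14% higher by the same rule. The median log2 ratio was -1.05 for the 7 genes and 0.03 for all genes. The same 5 were lower, and 0 higher, where the interval of the ratio had to exclude 1, a rule that called 17.4% of all genes lower and 13.1% higher. They were also the lower genes, with 0 higher, among the 6391 genes above an FPKM of 10 (16.5% lower, 7.07% higher) and with a 1.5-fold minimum (12.7% lower, 7.99% higher). Of the 21 pairs of these genes, 7 had ratio intervals that did not overlap. Eip74EF accounted for 4 of these pairs, lying above EcR, br, Eip75B and Hr3, and Hr3 for the other 3, lying below usp, Eip75B and Hr39. The ratios in these pairs were not adjusted for transcript length. No p-value can be computed from 1 value per group, and the confidence level of the bounds is not given in the sources used here.

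The share of lower genes has to be read against transcript length, which goes with the ratio in these data. Over 8983 genes, log2 ratio and median annotated transcript length were related with a Spearman rho of -0.43, given as a description across genes of the same 2 pooled values. All 10 genes of the set are longer than the median gene, with a median of 5714 nt against 1811 nt. Among genes of 4000 to 6000 nt, 42.5% were lower, and all 4 members of that class were. Among genes of 6000 to 10000 nt, 59.1% were lower, and so was 1 of the 2 members, Hr3.

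**Figure D2:**
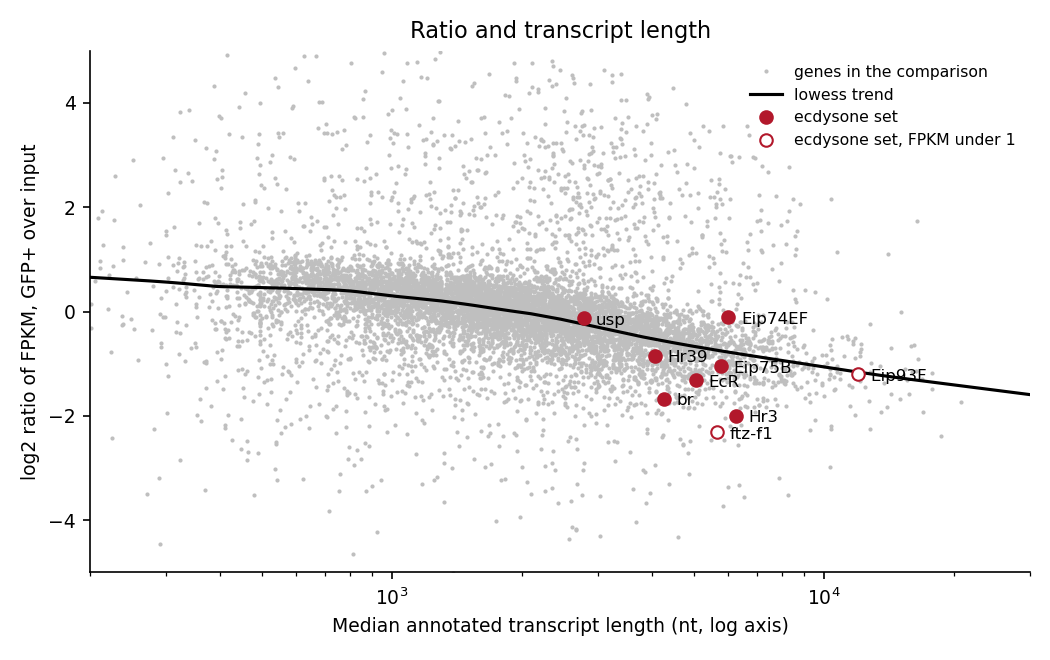
Log2 ratio of FPKM (GFP+ over input) against the median annotated transcript length (log axis) for the genes in the comparison (grey), with the lowess trend (black) and 9 genes of the set (red; open where the FPKM is under 1). Of the genes with a finite ratio, 252 lie outside the plotted range. Hr3 and br lie well below the trend at their length, EcR lies below it, and Eip74EF lies above it.

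Relative to genes of like transcript length, the set divided by gene rather than moving as one. After the trend was subtracted, 3 genes were lower (EcR, br and Hr3), 1 was higher (Eip74EF) and 3 overlapped (usp, Eip75B and Hr39), against 5.41% of all genes lower and 7.15% higher. Hr3 then had a ratio of 0.434 (interval 0.328 to 0.574) and br one of 0.465 (0.327 to 0.662). EcR had 0.639 (0.473 to 0.865), and its call was lost when the longest transcript set the length, with a log2 ratio of -0.38. The call for br was lost there too, with -0.64, while that for Hr3 held, with -1.10. Eip75B and Hr39 came to 0.813 (0.619 to 1.07) and 0.804 (0.615 to 1.05), so their lower level was not set apart from that of other long genes. Eip74EF turned from level to higher, with 1.58 (1.17 to 2.14). The usp ratio became 1.08 (0.526 to 2.22), still overlapping. The median log2 ratio of the 7 genes was -0.31 with the trend removed.

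**Figure D3:**
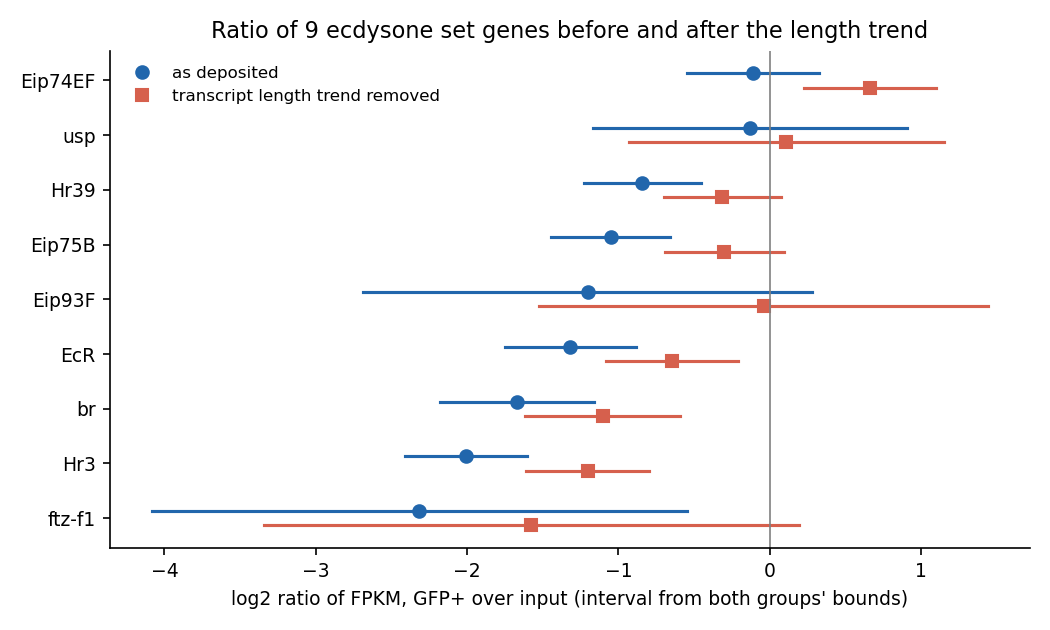
Log2 ratio of FPKM (GFP+ over input) for the 9 genes with usable estimates in both groups, as deposited (blue circles) and with the transcript length trend removed (red squares); bars are intervals built from both groups' bounds. Hr3, br and EcR have intervals left of 0 on both scales, while Eip74EF moves from -0.11 to 0.66.

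The order of levels was read on a further scale, the mean normalized count over all libraries per kilobase of median transcript, scaled to library size like FPKM, which ignores the groups. On it br was again highest, at 433, followed by Eip75B at 84.7, Hr39 at 67.2, Hr4 at 44.8 and usp at 35.5. EcR followed at 19.4 and Eip74EF at 10.5. For Hr3 the scales disagreed, since its counts gave 28.4 and its group FPKM a mean of 119. That is 0.239 of the FPKM level, where the median gene had 0.883. br departed in the other direction, at 1.57 of its FPKM level, and the low gene ftz-f1 was at 0.673. Hr3 was therefore second in FPKM in input cells and sixth by counts, so its rank among these genes is not settled. A length of 1496 nt would bring its 2 levels together, against the 6268.5 nt used for the trend. Its ratios before and after the trend rest on the same FPKM. The counts ignore the groups and cannot check them. The bases Hr3 shares with other annotated genes were given above, and their part in this gap was not tested.

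**Figure D4:**
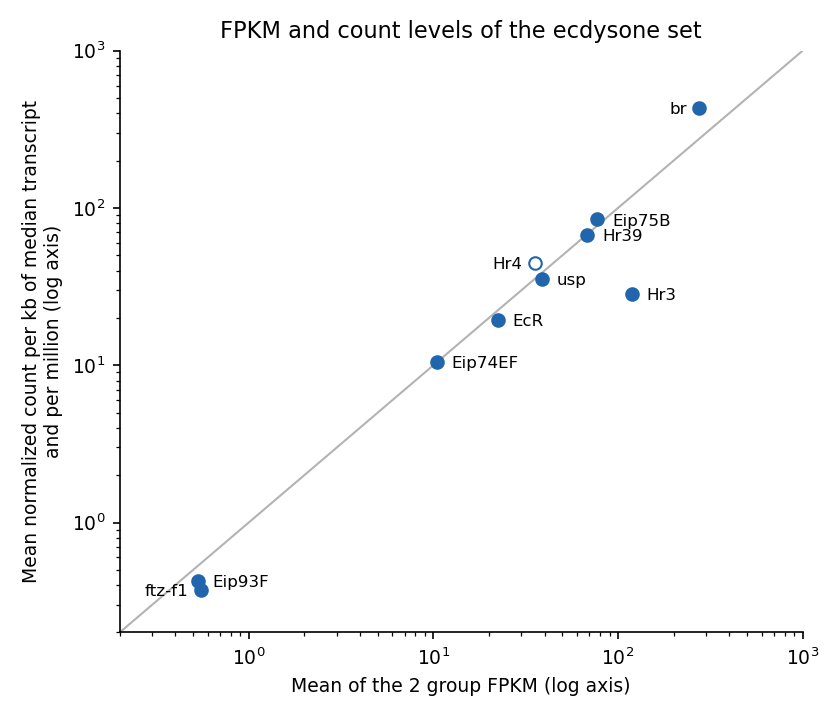
Mean normalized count over all libraries, per kilobase of median annotated transcript and scaled to library size (y), against the mean of the GFP+ and input FPKM (x) for the 10 genes, both on log axes, with the line of equality. Hr3 lies farthest from the line, at 28.4 against 119, br lies above it at 1.57 of its FPKM level and ftz-f1 below it at 0.673, and Hr4 (open) has a failed input estimate.

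The transporters that move ecdysone were lower in the GFP+ sort. Oatp74D, the importer through which ecdysone enters cells, had 30.7 (24.6 to 36.8) FPKM in the GFP+ sort against 79.5 (64.7 to 94.3) in the input. E23, an ABC transporter that dampens the ecdysone response, had 16.5 (13.1 to 20.0) and 32.5 (26.3 to 38.6). These were the 2 lower genes among 7 compared in a list of 12 for hormone entry, synthesis and turnover, in which 0 were higher and 5 overlapped, against 12.9% of all genes lower. The genes for synthesis enzymes stayed below an FPKM of 4 in both groups. With the length trend removed Oatp74D stayed lower and E23 overlapped.

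The genes for coregulators of the receptor were split by the rule into lower and overlapping. Of 13 compared, 5 were lower, 0 were higher and 8 overlapped, with a median log2 ratio of -0.53, against 12.9% of all genes lower. The share of lower genes was 59.1% at 6000 to 10000 nt, the class of tai, E(bx) and trr, and 82.1% above 10000 nt, the class of Smr. Smr, the corepressor that binds unliganded EcR, had 12.7 FPKM in the GFP+ sort against 44.7 in the input, the lowest ratio of the list at 0.283. The other 4, named after their values were seen, were tai, E(bx), Utx and trr. tai encodes the coactivator Taiman and had 15.7 and 36.3, E(bx) of the NURF remodeler had 23.4 and 65.9, and the histone modifiers Utx and trr had ratios of 0.638 and 0.652. Hsp83, the chaperone that loads the receptor, had 2237 FPKM in the GFP+ sort against 1954 in the input, and crc, the ATF4 homologue, had 863 and 693, with overlapping bounds. The remodeler genes Iswi and Nurf-38 had 65.8 and 249 FPKM in the GFP+ sort against 74.9 and 173 in the input, and FK506-bp1, an immunophilin gene, had 156 and 180, all with overlapping bounds. With the length trend removed the median of the list turned to 0.22, and Smr alone stayed lower, against 5.41% of all genes. When the longest transcript set the length none was lower, against 4.79%.

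A further list of 26 genes was compiled as ecdysone-responsive, and it includes genes of the juvenile hormone response such as Kr-h1. Of 23 compared, 9 were lower, 2 were higher and 12 overlapped, with a median log2 ratio of -0.59. Over all genes 12.9% were lower and 8.14% higher, so the share of higher genes was near the background. Ance, a secreted peptidase induced by ecdysone in discs, was higher, with 139 FPKM in the GFP+ sort against 68.1 in the input, a ratio of 2.04. The other higher gene, Eip63F-1, which encodes a calcium-binding protein, had 5.19 and 0.471 and was named after its value was seen. Sb, the Stubble protease of disc eversion, had the lowest ratio among genes above an FPKM of 10, with 17.1 and 65.5. ImpE2, an abundant transcript of everting discs, had 3148 FPKM in the GFP+ sort against 4746 in the input with overlapping bounds. ImpE3 had 533 and 610 and ImpL1 had 443 and 442, while ImpE1, a membrane protein gene, was lower with 164 and 374. Blimp-1, which represses ftz-f1 and was named after its value was seen, had 52.0 and 151. With the trend removed 6 were lower and 2 higher, Sb and Ance among them, and ImpE1 overlapped, against 5.41% and 7.15% of all genes. With the longest transcript as the length 4 were lower, against 4.79% of all genes.

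Within the nuclear receptor family as a whole, 14 of 21 genes were compared, of which 7 were lower, 0 higher and 7 overlapping, with a median log2 ratio of -0.63, against 12.9% of all genes lower. 4 of the 7 lower genes belong to the set. The other 3 were svp, Eip78C and Hnf4, the last 2 named after their values were seen. svp, the COUP-TF homologue, had the lowest ratio of the family, 0.119, with 2.27 FPKM in the GFP+ sort against 19.1 in the input. Hr78, an orphan receptor, had 75.6 and 90.3, and kni, of the Knirps group, had 27.1 and 23.9, both overlapping. Eip78C had 14.3 and 32.8 and Hnf4 had 11.6 and 25.4. With the trend removed 5 of the family were lower and 0 higher, against 5.41% of all genes lower. When the longest transcript set the length 3 were lower, against 4.79% of all genes.

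**Figure D5:**
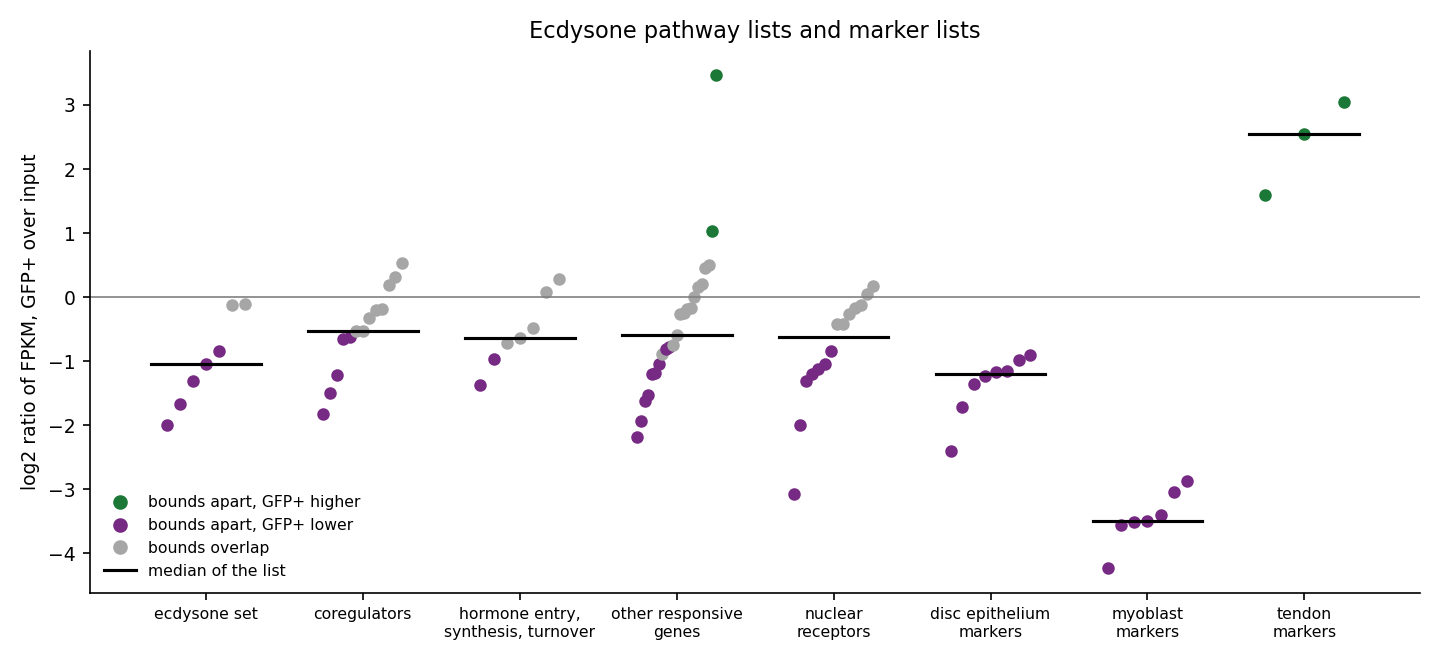
Log2 ratio of FPKM (GFP+ over input) of each compared gene in the ecdysone set, 4 further lists and 3 marker lists; colour gives the call by non-overlapping bounds and the bar the list median. The set has a median of -1.05, the disc epithelium markers one of -1.20 and the myoblast markers one of -3.50; with the length trend removed, not drawn, these are -0.31, -0.75 and -2.73.

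Marker lists of the cells in the disc went in both directions. Over all genes 12.9% were lower and 8.14% higher by the same rule. All 7 myoblast markers were lower in GFP+ cells, with a summed FPKM of 16.9 against 183 in input cells and log2 ratios between -4.23 and -2.87, and none was at 0. All 8 markers of disc epithelium and leg patterning were lower too, with sums of 309 and 801 and log2 ratios of -2.40 to -0.91. With the length trend removed all 7 myoblast markers stayed lower, while of the epithelial markers 5 were lower and 3 overlapped. Over all genes 5.41% were then lower. The 3 tendon markers sr, Tsp and Lrt were higher in the GFP+ group, with sums of 442 and 79.6. sr-gal4 drives the GFP used to sort, so a higher sr level was built into the sort. Heat shock and stress genes had 2 of 7 higher and 0 lower, with sums of 16332.5 and 11436.3. By the interval rule 5 of them were higher, against 13.1% of all genes. With the length trend removed 3 were higher, against 7.15% of all genes. Hsp27, the highest of the stress genes in input, had 4096 and 3659 with overlapping bounds. Neuronal markers had 2 of 4 higher and 0 lower, and 3 had a ratio above 1. With the length trend removed 3 were higher and 0 lower. elav, the highest neuronal marker in input, went the other way before the trend was removed, with 10.1 and 18.6. Its bounds overlapped, and the interval rule called it lower. Blood cell markers were low, with 2 of 8 at 0 in GFP+ cells and sums of 2.15 and 10.7, and the 3 glial markers summed to 2.95 and 4.39. The part of these cell types in the ratios of the ecdysone set was not tested. The mean normalized counts of all genes sum to 31652166, and the 7 compared genes of the set had mean normalized counts of 1999.63 or more.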

How the data were processed

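Per the labels, mRNA of sorted leg disc cells was sequenced in 3 GFP+ and 3 input libraries. Per the submitters' processing notes, the authors used Trimmomatic 0.32, Bowtie2 2.1.0 on dm6, Cufflinks 2.2.1 and DESeq2 1.2.8; FPKM came from DESeq2 according to the methods text, and the counting program is not given in the sources used here. The authors deposited, in a Cufflinks tracking layout, each group's FPKM and its bounds, and a table of mean normalized counts over all libraries (a signal value, counts divided by size factors). That table also holds the authors' own comparison (fold change, its error, statistic, p-values and threshold flags), which was not used.

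Ratios of group FPKM were formed with no pseudocount. A gene was called where the groups' bounds did not overlap, among genes with both statuses OK and an FPKM of at least 1 in a group. Intervals combine both upper half-widths on the log2 scale. Of 17411 gene IDs, 17138 matched the Ensembl 115 annotation by ID and 128 by symbol. Log2 ratio was regressed on log10 of the median annotated length with a lowess curve of span 0.3 (Python 3.11.15, statsmodels 0.14.6) and the GFP+ values and bounds were divided by it. The steps were tested on simulated data.

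The members and lists were chosen with earlier results of these data known. Named from each further list were the highest and lowest ratio among genes with an FPKM of at least 10 and up to 4 others with the highest level, and, of each marker list, the highest gene in input. Alternatives were a pseudocount of 1 FPKM, no filter, an FPKM above 10, median centring, the length trend, the interval rule and a 1.5-fold minimum. No sequence file was used.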

Additional observations from a re-analysis of the deposited data

How the results depend on the processing

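The 5 lower genes of the set, and 0 higher, were found under every alternative except removal of the length trend. With the trend on the median transcript removed, 3 genes of the set were lower and 1 higher, and the median log2 ratio of the set was -0.31. With the trend on the longest transcript, an alternative chosen after seeing the data, 1 was lower and 1 higher, with a median of -0.26. Over all genes these trends left 5.41% and 4.79% lower, and 7.15% and 7.32% higher. Over all genes, 1183 were lower and 749 higher. The lower genes numbered 494 and 437 with the 2 trends removed, and the higher genes numbered 452 at an FPKM above 10 and 1209 by the interval rule. The log2 ratio of Eip74EF, whose bounds overlapped at first, changed sign from -0.11 to 0.66 (median transcript) and 0.64 (longest transcript). That of usp changed sign from -0.13 to 0.11 and 0.10, with bounds that overlapped before and after. The median of the coregulator list changed sign as well, from -0.53 to 0.22 and 0.17. Centring on the median of all genes moved log2 ratios by 0.03. The group values allow no SD, and leaving out a library was not possible. No paired analysis was possible because the tables hold 1 value per group, so replicate numbers cannot be matched.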

Other observations

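A few genes that ecdysone controls in larval tissues other than discs were higher in GFP+ cells, at low levels. Of a list of 17 such genes of fat body and salivary gland, 8 reached an FPKM of 1, all of them in GFP+ cells only. Of these 8, 3 were higher and 5 overlapped. Genes that pass the filter through GFP+ cells alone cannot be called lower. Their share of higher genes is therefore not comparable with the 8.14% over all genes. With the length trend removed 2 were higher, since Eig71Ed overlapped, and above an FPKM of 10 only 1 gene, Fbp2, was compared and it overlapped. Fbp2, a fat body protein gene, had 11.4 (bounds 0 to 22.8) FPKM in the GFP+ sort against 0.0763 (0 to 0.419) in the input. The 3 higher genes, named after their values were seen, were Fbp1, Lsp1gamma and Eig71Ed. Fbp1, which encodes the receptor for larval serum protein uptake in fat body, had 3.78 (2.18 to 5.38) and 0.0521 (0 to 0.159). Lsp1gamma, a larval serum protein gene, had 1.51 (0.530 to 2.49) and 0.106 (0 to 0.303). Eig71Ed, a late gene of the salivary gland, had 3.49 (0.485 to 6.50) and 0.115 (0 to 0.377). The 17 genes summed to 37.5 FPKM in the GFP+ sort against 1.83 in the input, where 6 of them were at 0, as were 4 in the GFP+ sort. The 4 fat body markers, which belong to this list, summed to 25.6 and 0.227. The glue genes Sgs1, Sgs3, Sgs4, Sgs5, Sgs7 and Sgs8 stayed below an FPKM of 1 in both groups, with Sgs7 at 0 in the GFP+ sort and 0.457 in the input and Sgs8 at 0 and 0.901.

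Kr-h1, a zinc finger gene of the juvenile hormone response named after its value was seen, had 32.6 (26.4 to 38.9) FPKM in the GFP+ sort against 57.1 (46.4 to 67.8) in the input. Like Hr3, its count level was far below its FPKM level, at 0.229 of it. Of 8813 genes with counts and a transcript length, 6.40% had a share at or below that of Hr3, 0.239, and 0.386% one at or above that of br, 1.57.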
